A study of Mus musculus with 6 samples.

Results

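Cytosolic ribosomal protein genes were followed in group 2 innate lymphoid cells (ILC2s) sorted from mouse lung, in 3 CB2 KO and 3 WT RNA-seq libraries. The genes were taken as the protein-coding rows of the estimated count table whose symbols start with Rpl or Rps. Of 98 such rows, 8 S6 kinase genes, 5 rows named as -ps copies and 2 genes within 10 Mb of Cnr2 on chromosome 4 (Rpl11 and Rps6ka1) were left out. The remaining 83 genes, of 18478 in the table, hold 45 proteins of the large subunit, 31 of the small subunit and 6 paralogs (Rpl7l1, Rpl22l1, Rpl36al, Rpl39l, Rps27l and Rps27rt). The 83rd gene, Rps19bp1, is named for a ribosomal protein that its product binds and is not part of the ribosome. All 83 passed the filter on low counts, as did 14084 genes of the table.

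CB2 KO cells and WT cells both came from BALB/c mice aged 6 weeks, and both were exposed to interleukins throughout. All donors had been given IL-33 into the nose, 3 times at 1 µg each. The isolated cells were then held for 24 h in IL-2 and IL-7, each at 10 ng/mL, so no group was left unstimulated. The knockout allele is not described in the labels, and nothing in them says whether the replicates of a group are separate mice. The p-values therefore describe the spread among the libraries alone, and that spread may be technical.

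Each ribosome carries one copy of nearly every ribosomal protein, and the proteins made in excess are degraded, so cells keep the genes' output closely matched. Their mRNAs are among the most abundant in dividing cells, and in lymphocytes ribosome production increases with activation. Nearly all of these mRNAs begin with a C followed by a run of pyrimidines, the terminal oligopyrimidine (TOP) motif, through which the kinase mTOR and the RNA-binding protein Larp1 govern their translation. Mammalian genomes also hold many processed copies of these genes, reverse-transcribed mRNAs inserted elsewhere, most of them pseudogenes.

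Some members resemble each other in sequence, which bears on how reads are assigned, and the coding starts of the Rps27 group show the range of likeness. Rps27 and Rps27l encode related zinc-finger proteins of the small subunit, and Rps27rt is an intronless retrogene of Rps27. The first 150 coding bases below are from the GENCODE M21 principal transcripts, and capitals in Rps27l mark bases that differ from Rps27.
Rps27: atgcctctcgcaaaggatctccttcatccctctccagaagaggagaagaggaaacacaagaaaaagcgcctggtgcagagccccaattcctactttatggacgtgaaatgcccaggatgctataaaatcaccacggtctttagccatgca
Rps27rt: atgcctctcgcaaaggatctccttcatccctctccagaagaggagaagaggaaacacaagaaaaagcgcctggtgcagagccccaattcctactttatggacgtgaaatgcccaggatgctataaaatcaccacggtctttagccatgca
Rps27l: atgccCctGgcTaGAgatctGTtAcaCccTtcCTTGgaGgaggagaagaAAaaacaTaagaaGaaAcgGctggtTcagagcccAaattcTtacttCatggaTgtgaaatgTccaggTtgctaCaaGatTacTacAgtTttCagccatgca
Rps27 and Rps27rt have the same 252 coding bases, with 0 differences, whereas Rps27l differs from Rps27 at 35 of the 150 bases shown. Rpl36a and Rpl36al, which encode related large-subunit proteins, lie between these extremes, and capitals in Rpl36al mark bases that differ from Rpl36a.
Rpl36a: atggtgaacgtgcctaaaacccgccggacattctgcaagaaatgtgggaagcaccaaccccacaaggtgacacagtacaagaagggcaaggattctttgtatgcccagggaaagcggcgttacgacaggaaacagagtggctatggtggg
Rpl36al: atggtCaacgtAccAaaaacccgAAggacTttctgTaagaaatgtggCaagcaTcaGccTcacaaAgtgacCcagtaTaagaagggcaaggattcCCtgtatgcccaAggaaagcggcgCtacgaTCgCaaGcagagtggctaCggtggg
Over the whole 318 bases this pair differed at 39 positions, an identity of 87.7%.

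Library totals ran from 17141698 to 21103769 estimated counts in CB2 KO and from 17850840 to 21621008 in WT. Cnr2, the gene for the cannabinoid receptor CB2, had 9.24, 1.60 and 3.84 CPM (estimated counts scaled to the normalized library size) in CB2 KO replicates 1 to 3, against 9.32, 17.4 and 15.8 CPM in WT replicates 1 to 3. It was lower by a log2 fold change of -1.52 (SE 0.56, edgeR adjusted p = 0.514), and the value of the library labelled CB2 KO replicate 1 was close to that of WT replicate 1. The same CB2 KO library also had the fewest genes with a count, 15005, against 15640 to 16514 in the others. The 12 ILC2 markers summed to 14495 to 16997 CPM in CB2 KO and 14357 to 15630 CPM in WT and all 12 were detected, as the label of the sorted cells has it. Il5, a main cytokine of these cells, had 10015, 7888 and 9160 CPM in CB2 KO and 6972, 7186 and 7871 CPM in WT. It made up most of that sum in every CB2 KO library and in WT replicate 3, but not in WT replicates 1 and 2. The other 11 markers summed to 6607 to 7048 CPM in CB2 KO and 7385 to 7774 CPM in WT, so those groups did not overlap. Of the 12, 9 had a negative log2 fold change. Without overlap 6 were lower, beside 7.20% of all tested genes and 13.5% of those with at least 100 CPM. At an unadjusted edgeR p under 0.05, 5 were lower, beside 4.27% of all tested genes. edgeR and limma called 0 of the 12 and DESeq2 called 2, where DESeq2 called 2.58% of all genes. Macrophage and monocyte markers, 4 of 5 in the table, summed to 146 to 169 CPM in CB2 KO and 12.1 to 59.2 CPM in WT. Mast cell and basophil markers, 5 of 5, summed to 38.1 to 81.3 CPM in CB2 KO and 16.0 to 28.3 CPM in WT, and T cell markers, 2 of 4, to 26.3 to 29.3 CPM in CB2 KO and 10.4 to 17.2 CPM in WT. The 1 B cell marker of 3 in the table was at 0 in every CB2 KO library and at 0.24 to 1.12 CPM in WT. Epithelial markers, 3 of 3, gave 22.9 to 39.7 CPM in CB2 KO and 30.8 to 117 CPM in WT. The part of these other cells and of the lower ILC2 markers in the results below was not tested, and in such bulk samples fewer cells of a type and less RNA per cell cannot be told apart.

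No ribosomal protein gene passed the test between CB2 KO and WT ILC2s, and for the abundant ones the intervals left room for small differences only. edgeR's quasi-likelihood test called 0 of the 83 genes at an adjusted p under 0.05, against 15 of 14084 genes (0.107%) over the whole table, 0.0426% higher and 0.0639% lower. DESeq2 also called 0 of the 83, where it called 2.58% of all genes. limma called 0 of the 83 both on voom-weighted counts and on the authors' normalized signal. Over all 14084 genes it called only 15 and 17. At an unadjusted p under 0.05, edgeR listed 1 of the 83 (Rps27l), against 8.60% of all genes tested, 4.33% higher and 4.27% lower. The lowest adjusted p among the members was 0.567. Their median log2 fold change was 0.02, beside -0.00 for all tested genes, with 45 values positive and 38 negative.

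Precision differed with abundance. Of the 44 members with a mean of at least 100 CPM, all 44 had a 95% interval lying within a 1.5-fold change in either direction, and 34 within a 1.3-fold change. Over all 83 the numbers were 63 and 39. The median standard error of the log2 fold change was 0.10 for the 44 abundant members and 0.20 for the other 39, beside 0.33 for all tested genes. Fitted log2 fold changes of the 44 ran from -0.11 (Rps4x) to 0.21 (Rps27l), with a median of 0.07 and 28 of 44 positive. Of all 83 members, 76 lay within 0.25 log2 units of no change. The 7 beyond it each had a mean below 82 CPM, 5 of them positive and 2 negative.

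**Figure D1:**
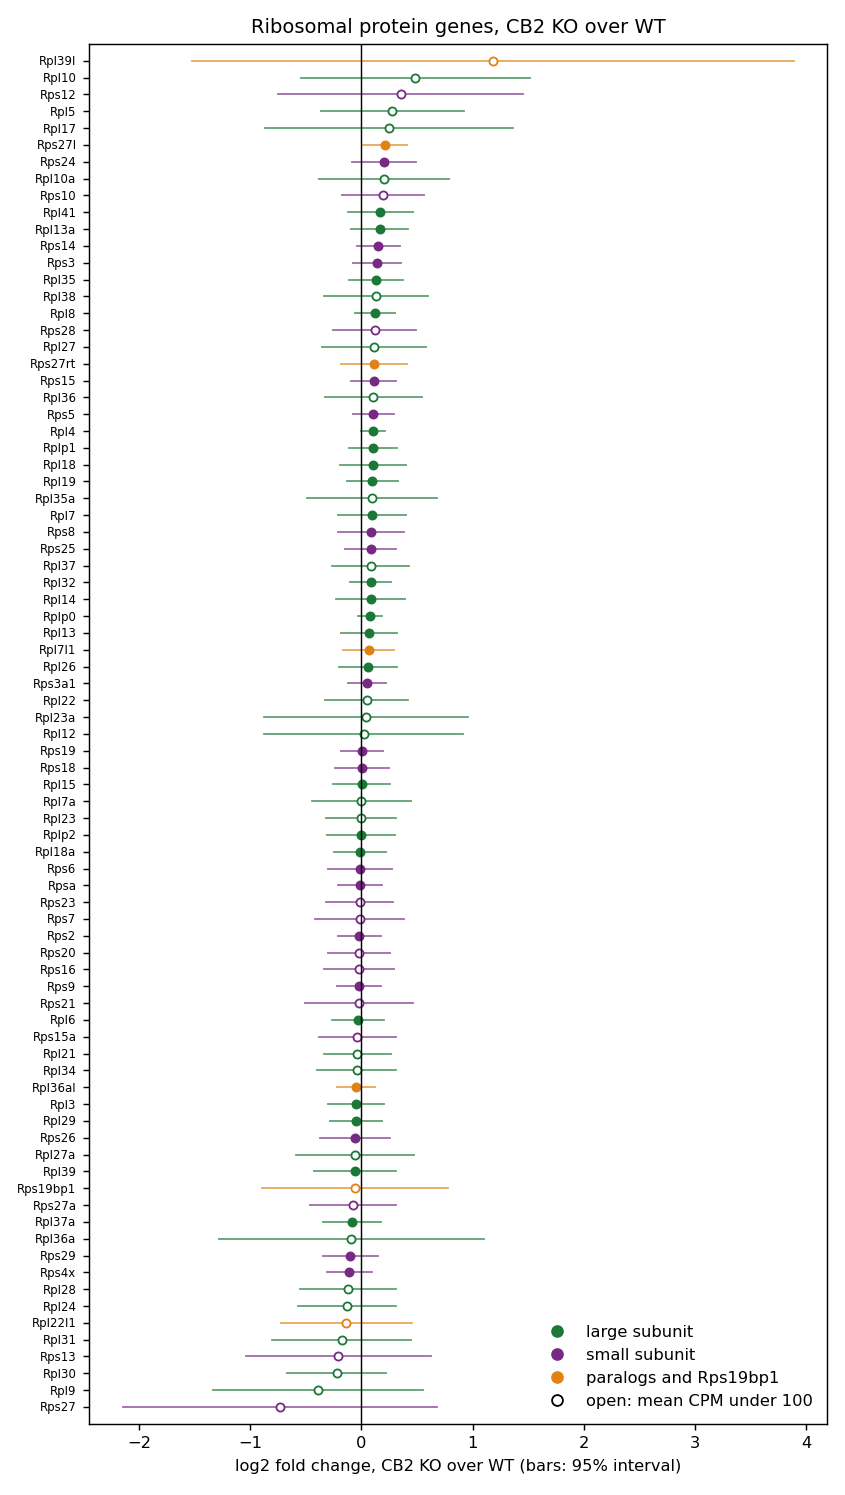
Log2 fold change of the ribosomal protein genes, CB2 KO over WT, with 2 members left out, on the horizontal axis with 95% intervals from the edgeR fit, 1 gene per line and ordered by value. Filled points have a mean of at least 100 CPM and open points less, colours give the subunit or paralog class, and the filled points sit between -0.11 and 0.21 while the widest intervals belong to open ones.

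Large-subunit proteins, which build the peptide-forming part of the ribosome, had a median log2 fold change of 0.06, with 27 of 45 positive and 0 called. Rpl4 lines the tunnel through which the new peptide leaves, and its gene lies at chr9:64173375-64178666 (mm10, plus strand). It had 968, 970 and 1001 CPM in CB2 KO, against 925, 919 and 883 CPM in WT. All 3 CB2 KO values lay above all 3 WT values, by a log2 fold change of 0.11 (SE 0.05, edgeR adjusted p = 0.585). Rplp0, the base of the stalk that recruits translation factors (chr5:115559467-115563727, plus strand), had 959, 981 and 950 CPM in CB2 KO and 887, 932 and 917 CPM in WT. Its groups did not overlap either, and its log2 fold change of 0.08 (SE 0.05, edgeR adjusted p = 0.688) had a 95% interval of -0.03 to 0.19. Rpl41, the smallest protein of the set, had 343, 300 and 333 CPM in CB2 KO, against 319, 238 and 312 CPM in WT. The groups overlapped, the lowest value being that of WT replicate 2, and the log2 fold change was 0.17 (SE 0.12, edgeR adjusted p = 0.769). Rpl30, whose protein can bind its own RNA in yeast, had 55.3, 42.8 and 43.3 CPM in CB2 KO and 61.4, 55.6 and 47.4 CPM in WT, a log2 fold change of -0.22 (SE 0.19).

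Small-subunit proteins, which form the part that reads the mRNA, had a median log2 fold change of -0.01, with 14 of 31 positive and 0 called. Rps14, part of the platform of the small subunit, had 334, 312 and 314 CPM in CB2 KO, against 305, 263 and 295 CPM in WT. The groups did not overlap, and the log2 fold change was 0.15 (SE 0.08, edgeR adjusted p = 0.664). Rps24, needed for small-subunit assembly and mutated in the human anaemia Diamond-Blackfan, had 112, 117 and 136 CPM in CB2 KO and 107, 98.6 and 110 CPM in WT, a log2 fold change of 0.21 (SE 0.12). It had every CB2 KO value above every WT value, with an edgeR adjusted p of 0.692. Rps4x, the X-linked gene of a small-subunit protein, was the lowest of the abundant members at 234, 212 and 216 CPM in CB2 KO, against 253, 235 and 225 CPM in WT. Its groups overlapped, with a log2 fold change of -0.11 (SE 0.09, edgeR adjusted p = 0.782).

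Rps6, the target of the S6 kinases downstream of mTOR, had 110, 119 and 111 CPM in CB2 KO and 129, 107 and 106 CPM in WT. Its log2 fold change was -0.01, with a 95% interval of -0.30 to 0.28. Rpsa, a small-subunit protein also described as a laminin receptor, had 289, 262 and 251 CPM in CB2 KO and 282, 256 and 273 CPM in WT, again with a log2 fold change of -0.01 and a narrower interval, -0.21 to 0.19. In both genes the groups overlapped throughout. Rps29, a small zinc-binding protein, had 136, 128 and 131 CPM in CB2 KO, against 147, 129 and 148 CPM in WT, a log2 fold change of -0.10 (SE 0.10). Rps19bp1, the one gene of the set outside the ribosome, had 29.8, 20.7 and 36.3 CPM in CB2 KO and 42.5, 20.04 and 25.4 CPM in WT, a log2 fold change of -0.06 (SE 0.35).

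Counted without a model, every CB2 KO value lay above every WT value for 9 of the 83 members, among them Rpl4, Rplp0, Rps10, Rps14, Rps15, Rps24, Rps25 and Rps27l, which is 10.8%. Over all tested genes the share was 6.91%. Only Rpl28, a large-subunit protein, had every CB2 KO value below every WT value, beside 7.20% of all tested genes. It had 32.0, 29.5 and 33.2 CPM in CB2 KO and 34.3, 34.9 and 33.6 CPM in WT, and a log2 fold change of -0.12 (SE 0.18). Among genes of at least 100 CPM, 7 of 44 members were higher without overlap and 0 lower, beside 7.94% and 13.5% of the 2431 such genes. None of these members passed the adjusted test.

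The summed share of the library taken by the 83 genes was 1.36%, 1.26% and 1.301% in CB2 KO replicates 1 to 3 and 1.298%, 1.17% and 1.24% in WT replicates 1 to 3. The means were 1.31 ± 0.052% in CB2 KO and 1.24 ± 0.062% in WT (SD, n = 3 each). The difference of 0.067 percentage points was slightly larger than the SD of either group. The groups overlapped, since CB2 KO replicate 2 lay below WT replicate 1. Leaving out the library labelled CB2 KO replicate 1 brought the difference to 0.040 points, and leaving out WT replicate 2 brought it to 0.034. Large-subunit genes held 0.672 ± 0.031% in CB2 KO and 0.631 ± 0.025% in WT. Small-subunit genes held 0.521 ± 0.015% in CB2 KO and 0.503 ± 0.029% in WT. Small-subunit genes made up 39.4%, 40.3% and 40.1% of the members' counts in CB2 KO, against 40.9%, 40.3% and 40.5% in WT. The groups overlapped, and the difference of -0.62 percentage points was larger than the SD of either group (40.0 ± 0.44% in CB2 KO and 40.6 ± 0.32% in WT, n = 3 each).

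The members moved together from library to library by more than they differed between groups. On the log2(CPM + 0.5) scale, the median deviation of the 83 genes from their own mean over 6 libraries was 0.10, -0.03 and 0.02 in CB2 KO replicates 1 to 3, and 0.06, -0.10 and -0.01 in WT replicates 1 to 3. CB2 KO replicate 1 was thus highest and WT replicate 2 lowest, with libraries of both groups on both sides of 0. Within each group replicate 1 was highest, replicate 3 next and replicate 2 lowest. CB2 KO replicate 1 gave the highest for 32 members (38.6%), beside 23.1% of all tested genes, and WT replicate 1 the highest for 23 (27.7%), beside 17.7%. WT replicate 2 gave the lowest of the 6 values for 36 members (43.4%), beside 12.7% of all tested genes. Over the whole table the median deviation stayed between -0.01 and 0.04 in every library. The scaling of library sizes holds the typical gene about level, so that median cannot show whether other genes shared these shifts. Other coding genes with transcripts of similar length, 485 to 1898 bases, and a mean of at least 10.2 CPM numbered 2019. Their medians were 0.03, -0.02 and 0.02 in CB2 KO replicates 1 to 3 and 0.04, -0.01 and -0.01 in WT replicates 1 to 3. Replicate 1 was thus highest in both groups here too, over a smaller range than in the members. The within-group SD of the members' medians, 0.074, exceeded the difference between the groups' mean deviations, 0.048.

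**Figure D2:**
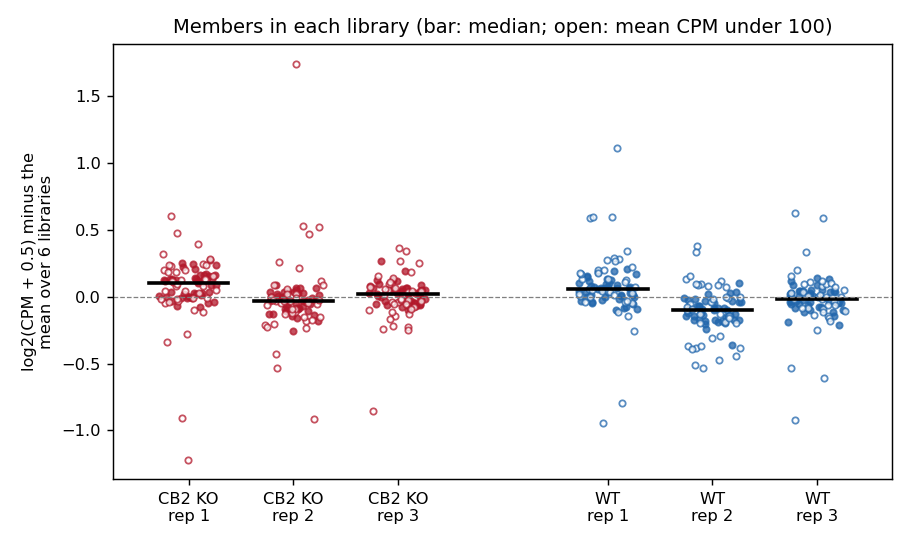
Each point is 1 gene's log2(CPM + 0.5) in 1 library minus its mean over the 6 libraries, CB2 KO left of WT, with a bar at the median of the 83 genes and open points for genes under 100 CPM. The median is highest in CB2 KO replicate 1 (0.10) and lowest in WT replicate 2 (-0.10).

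Among the members that varied most at 100 CPM or more, this ordering of libraries recurred in part. Rpl39, a small protein at the tunnel exit, had 115, 85.8 and 103.2 CPM in CB2 KO and 118, 92.4 and 106 CPM in WT. Its high values fell in replicate 1 of both groups, and its log2 fold change was -0.06 (SE 0.16). Rpl7 and Rpl14 are both large-subunit proteins. Rpl7 had 339, 256 and 278 CPM in CB2 KO and 264, 249 and 307 CPM in WT, and Rpl14 had 211, 166 and 170 CPM in CB2 KO and 165, 160 and 195 CPM in WT. In both, CB2 KO replicate 1 was the highest and WT replicate 2 low, and the log2 fold changes were 0.10 (SE 0.13) for Rpl7 and 0.08 (SE 0.13) for Rpl14.

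Levels compared between genes are given in CPM per kilobase of the principal GENCODE M21 transcript, averaged over the 6 libraries. Among the highest were Rplp0 at 690, Rpl4 at 614, Rpl41 at 604 and Rps9 at 505 CPM per kilobase, and the median over members was 121. The lowest were Rpl39l at 1.23, Rpl17 at 3.26, Rps12 at 7.51, Rpl12 at 8.21 and Rpl5 at 8.84 CPM per kilobase. This order holds for the deposited rows only: with the counts of processed copies added, described below, Rpl17 came to 128, Rps12 to 130, Rpl12 to 142 and Rpl5 to 265 CPM per kilobase, and 4 of the 10 highest members were still among the highest 10. Apart from Rpl39l, each of these low genes encodes a standard protein of the ribosome. Rpl17, with 6.61, 3.49 and 3.90 CPM in CB2 KO and 4.33, 2.73 and 4.87 CPM in WT, and Rps12, with 2.53, 4.81 and 4.36 CPM in CB2 KO and 3.26, 3.61 and 2.15 CPM in WT, both had overlapping groups. Rpl12, a protein of the stalk base, had 13.2, 8.73 and 9.13 CPM in CB2 KO and 12.7, 11.1 and 6.34 CPM in WT. Rps9, at the other end of the range, had 459, 441 and 474 CPM in CB2 KO, against 504, 415 and 477 CPM in WT, a log2 fold change of -0.02 (SE 0.08).

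Processed copies of the members held about as many counts as the members did. A search of the members' coding sequences against GENCODE M21 transcripts found 317 copies, rows typed as pseudogenes or named -ps, for 76 of the 83 members. Each matched a member at 90% identity or more over at least 60% of its length. A further 7 protein-coding rows within these limits were not counted as copies, nor was any member, such as Rps27rt. The 317 copies held 1.36%, 1.26% and 1.31% of the library in CB2 KO and 1.31%, 1.20% and 1.27% in WT, almost the same as the members themselves. Members made up 49.9% of the joint sum in each CB2 KO library and 49.4% to 49.7% in WT libraries. For 46 members, over 50% of the joint counts lay in the copies, and among members with a copy the median share left to the member was 43.8%. Rpl9 and Rpl17 kept the least, at 2.55% each, and 10 members kept under 10%. Of the copies themselves, 178 passed the filter, with a median log2 fold change of 0.04 and 0 called by edgeR, DESeq2 or limma. At an unadjusted p under 0.05 edgeR listed 4 (2 higher and 2 lower), beside 8.60% of all tested genes. Among copies named -ps, Rps15a-ps6 had 4.77, 4.81 and 1.86 CPM in CB2 KO, against 0.28, 0.39 and 1.42 CPM in WT, a log2 fold change of 2.57 (SE 0.73, edgeR adjusted p = 0.351). Rps2-ps9 had 0, 0.047 and 0.76 CPM in CB2 KO and 1.21, 1.61 and 0.68 CPM in WT, a log2 fold change of -2.28 (SE 1.02, edgeR adjusted p = 0.580). Transcription from a copy and a read of its parent placed there cannot be told apart in these counts.

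**Figure D3:**
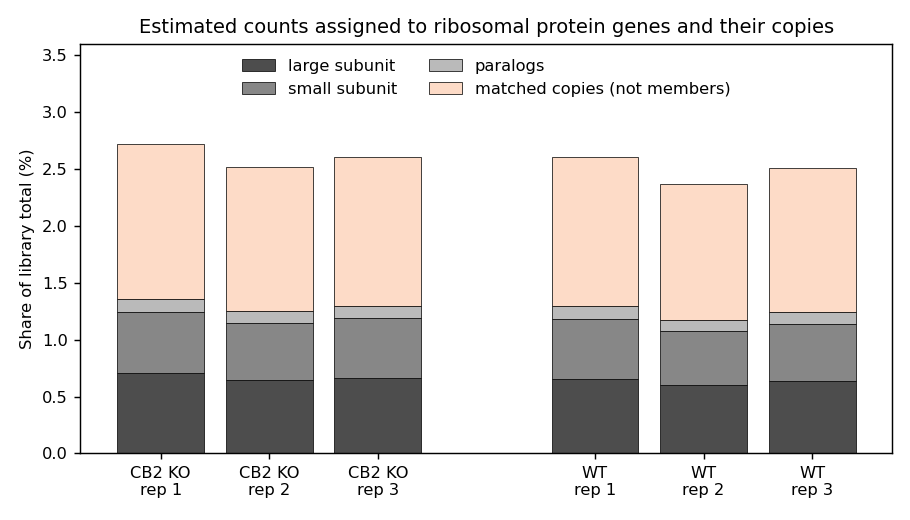
Stacked bars of the share of each library's estimated counts (%), CB2 KO left of WT, held by large-subunit genes, small-subunit genes, paralogs and the matched processed copies; Rps19bp1 is left out of the bars. The members together are highest in CB2 KO replicate 1 at 1.36% and lowest in WT replicate 2 at 1.17%, and the copies take about as much again in every library.

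Rpl10 showed how far this reached. It encodes a late-joining large-subunit protein, lies at chrX:74270812-74273135 (mm10, plus strand), and kept 2.89% of the counts of itself and its 8 copies. Rpl10-ps1 and Rpl10-ps3 are identical to its coding sequence over all 642 bases. As deposited, Rpl10 had 22.9, 23.6 and 13.7 CPM in CB2 KO, against 8.25, 12.3 and 24.7 CPM in WT, a log2 fold change of 0.49 (SE 0.44). Summed with its copies it had 621, 578 and 576 CPM in CB2 KO and 697, 582 and 595 CPM in WT, a log2 fold change of -0.08 (SE 0.08). The direction of the fitted difference turned and its standard error became smaller.

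Rpl9, a protein near the base of the stalk, did the reverse. The deposited row had 9.44, 9.48 and 4.59 CPM in CB2 KO and 13.4, 9.51 and 8.21 CPM in WT, a log2 fold change of -0.39 (SE 0.40). With its copies the sum was 408, 355 and 370 CPM in CB2 KO, against 374, 309 and 328 CPM in WT, and the log2 fold change was 0.16 (SE 0.10). Rpl5 binds a small ribosomal RNA together with Rpl11, and free Rpl5 can restrain the p53 inhibitor Mdm2. With its copies it had 584, 586 and 574 CPM in CB2 KO and 545, 501 and 466 CPM in WT. These groups did not overlap, and the log2 fold change of 0.20 (SE 0.07) had an edgeR adjusted p of 0.481, the smallest of the 83 sums.

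Over all members, fewer fitted values lay far from 0 once the copies were added. Sums beyond 0.25 log2 units numbered 2 (Rps27 and Rpl39l) in place of 7. The Rps27 sum left out Rps27rt, itself a member, although both have the same coding bases. That pair is summed further below. The interval lay within a 1.3-fold change for 65 members in place of 39. The 10 members with under 10% of the joint counts ranged from -0.39 to 0.49 as deposited and from -0.10 to 0.20 with copies. The median log2 fold change was then 0.04, with 48 positive and 35 negative, and edgeR called 0. In that table edgeR called 0.108% of all 13906 genes tested. At an unadjusted p under 0.05 edgeR listed 2 sums (Rpl5 and Rps27l), beside 8.54% of all genes tested. Every CB2 KO value lay above every WT value for 8 sums, beside 6.78% of all genes, and below for 3 (Rpl3, Rps13 and Rps4x), beside 7.35%. This summing was added after the deposited values had been seen.

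**Figure D4:**
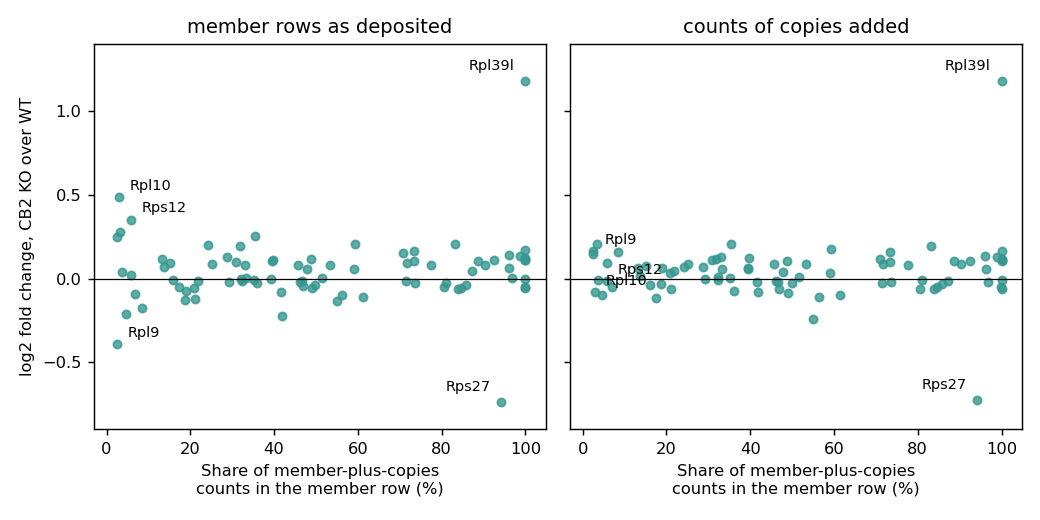
Log2 fold change, CB2 KO over WT, on the vertical axis against the percentage of the joint counts of a member and its copies that the member row holds, as deposited (left) and with the counts of copies added (right), 1 point per member. Members that hold under 10% range from -0.39 to 0.49 as deposited and from -0.10 to 0.20 with copies. Rps27rt is not added to Rps27, since both are members.

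Of the paralogs, Rps27l came closest to a difference. It is a p53-responsive relative of Rps27 in human cells, and its gene lies at chr9:66946086-66949516 (mm10, plus strand). It had 306, 295 and 307 CPM in CB2 KO, against 281, 238 and 267 CPM in WT. The groups did not overlap, and WT replicate 2 was the lowest. The log2 fold change of 0.21 (SE 0.08) had a 95% interval of 0.01 to 0.41, the only one of the 83 to leave out 0, with an adjusted p of 0.567 from edgeR.

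Rps27 and Rps27rt share their whole coding sequence, so reads over those bases fit both rows. Rps27 (chr3:90212522-90213651, minus strand) had 4.47, 1.79 and 3.55 CPM in CB2 KO and 8.90, 2.83 and 4.08 CPM in WT. The groups overlapped, and the log2 fold change of -0.73 (SE 0.60) was the most negative of the members. Rps27rt (chr9:114982366-114982739, minus strand) had 212, 164 and 184 CPM in CB2 KO and 186, 157 and 175 CPM in WT, a log2 fold change of 0.11 (SE 0.13). The retrogene row was thus given 97.9%, 98.9% and 98.1% of the pair's counts in CB2 KO, against 95.4%, 98.2% and 97.7% in WT. Together the pair had 190 ± 25.7 CPM in CB2 KO and 178 ± 17.9 CPM in WT (SD, n = 3 each), a difference within the spread of either group. Reads of the parent and of the retrogene cannot be told apart over the coding bases, and the value of either row alone is uncertain.

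Rpl36al had 348, 322 and 353 CPM in CB2 KO and 369, 340 and 347 CPM in WT, whereas its parent Rpl36a had 3.18, 9.48 and 6.86 CPM in CB2 KO and 5.73, 5.51 and 10.1 CPM in WT. The paralog therefore held 98.1 ± 0.98% of the pair in CB2 KO and 98.0 ± 0.73% in WT. Rpl36a kept 6.88% of the counts of itself and its own copies, and with the copies named -ps added to both genes the share of Rpl36al was 76.0% to 79.1% in CB2 KO and 75.6% to 79.3% in WT. Rpl22 and Rpl22l1 encode related large-subunit proteins, with Rpl22 known in mice to repress its paralog. Rpl22 had 65.3, 61.7 and 75.2 CPM in CB2 KO and 72.3, 57.6 and 64.6 CPM in WT. Rpl22l1 had 23.2, 17.7 and 17.2 CPM in CB2 KO, against 23.2, 21.4 and 19.0 CPM in WT, which was 22.4 ± 3.78% of the pair in CB2 KO and 24.7 ± 2.22% in WT.

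Rpl7l1, a relative of Rpl7, had 241, 232 and 227 CPM in CB2 KO and 249, 213 and 206 CPM in WT, a log2 fold change of 0.07 (SE 0.10). Its share of the pair was 44.7 ± 2.97% in CB2 KO and 44.9 ± 4.35% in WT. Rpl39l, a paralog of Rpl39 best known from the testis, was near the limit of detection with 0, 72 and 13 counts in CB2 KO and 27, 9 and 2 counts in WT. Most of its CB2 KO counts came from replicate 2, and its log2 fold change of 1.18 had a standard error of 1.25. For each of the 6 paralogs, the share of the pair differed between the groups by less than the larger of their SDs. Rps4l, which the table types as a processed pseudogene and is no member, had 29.9, 23.5 and 27.3 CPM in CB2 KO and 20.7, 28.1 and 18.7 CPM in WT. Rpl3l and Rpl10l have no row among the deposited counts, so they could not be followed.

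The annotated starts of the members held some features of this class more often than starts in general, though a pyrimidine run at the start base itself and a site of ETS-family factors were each missing from most rows. RefSeq promoters (GRCm38.p6) were matched for 63 of the 83 members, in 74 rows. At the start base itself, a C followed by at least 4 pyrimidines was present in 18.9% of the members' rows, beside 2.51% of all 32851 rows. For a run that begins within 10 bases on either side of the start the shares were 54.1% and 30.7%. The motif CCGGAAG, searched on both strands as CCGGAAG or CTTCCGG and known as a site of ETS-family factors, was in the 300 bases of 35.1% of the members' rows and 8.86% of all rows. The stretches below run from 30 bases before the annotated start to 20 after it. Capitals mark the pyrimidine run that begins within 10 bases of the start. The stretches were chosen to show Rps27 beside its retrogene, the mTOR-linked gene Rps6, a paralog, and Rplp0, in which no run begins there.
Rps27, chr3:90213629-90213678, minus strand: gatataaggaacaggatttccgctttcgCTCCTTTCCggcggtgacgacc
Rps27rt, chr9:114982720-114982769, minus strand: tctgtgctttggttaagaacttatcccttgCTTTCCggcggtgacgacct
Rps6, chr4:86857348-86857397, minus strand: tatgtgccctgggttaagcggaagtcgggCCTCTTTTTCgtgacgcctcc
Rpl22l1, chr3:28805478-28805527, plus strand: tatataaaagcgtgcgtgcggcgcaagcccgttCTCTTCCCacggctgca
Rplp0, chr5:115559437-115559486, plus strand: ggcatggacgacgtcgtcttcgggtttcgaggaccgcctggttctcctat
The first 4 were picked because they have a run that begins within 10 bases of the start. No run begins there in Rplp0, Rpl4, Rpl41, Rpsa or Rpl36al, but in Rpl4 a run that begins further upstream reaches into that stretch. A match is a description of the letters, and annotated starts can lie some bases from the start used in these cells.

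Genes that work with the ribosomal proteins were read from lists beside them. For each list the share over all tested genes was 8.60% at an unadjusted edgeR p under 0.05 and 2.58% called by DESeq2. Of 53 ribosome biogenesis genes, 0 were called by edgeR or limma and 1 by DESeq2, with 44 positive and a median log2 fold change of 0.16. At an unadjusted p under 0.05 edgeR listed 6 as higher and 0 as lower, beside 4.33% and 4.27% of all genes. In this list 11 genes were higher without overlap (20.8%, beside 6.91% of all genes) and 2 lower (3.77%, beside 7.20%). Heatr1, needed for transcription and processing of ribosomal RNA, had 130, 81.4 and 120 CPM in CB2 KO, against 56.6, 52.5 and 70.3 CPM in WT. Its groups did not overlap, with a log2 fold change of 0.89 (SE 0.22, edgeR adjusted p = 0.351, DESeq2 adjusted p = 0.00217). Pwp2, of the same processing complex, had 62.2, 53.7 and 58.5 CPM in CB2 KO and 22.7, 41.3 and 43.5 CPM in WT, a log2 fold change of 0.72 (SE 0.25, edgeR adjusted p = 0.486).

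Of 17 translation factors whose mRNAs also carry the TOP motif, 14 were positive, with a median log2 fold change of 0.05, 0 called by edgeR or limma, 1 by DESeq2 and 1 at an unadjusted p under 0.05. Btf3, a subunit of the complex that meets new peptides at the ribosome, had 236, 224 and 240 CPM in CB2 KO, against 197, 184 and 202 CPM in WT. The groups did not overlap, and the log2 fold change was 0.26 (SE 0.08, edgeR adjusted p = 0.452, DESeq2 adjusted p = 0.0153). Pabpc1, which binds poly(A) tails, had 280, 257 and 251 CPM in CB2 KO and 234, 232 and 232 CPM in WT, a log2 fold change of 0.18 (SE 0.08, edgeR adjusted p = 0.590). Rack1, a ribosomal protein of another name, had 572, 503 and 488 CPM in CB2 KO and 481, 493 and 513 CPM in WT. Fau, whose ribosomal protein is made as a fusion to a ubiquitin-like part, had a log2 fold change of 0.05 (SE 0.14).

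Of 26 genes of mTOR and MYC control, 15 were positive, with a median log2 fold change of 0.04, 0 called by edgeR or limma, 1 by DESeq2 and 1 lower at an unadjusted p under 0.05. Tsc2, an inhibitor of mTOR complex activity, had 46.7, 58.1 and 46.6 CPM in CB2 KO, against 65.2, 77.8 and 81.2 CPM in WT. The groups did not overlap, and the log2 fold change was -0.55 (SE 0.17, edgeR adjusted p = 0.452, DESeq2 adjusted p = 0.0342). Rraga, a GTPase that brings mTOR to the lysosome, had 93.6, 55.8 and 76.3 CPM in CB2 KO and 54.6, 42.3 and 62.1 CPM in WT, with overlapping groups and a log2 fold change of 0.51 (SE 0.24, edgeR adjusted p = 0.621). Of 6 snoRNA host genes with TOP starts, 4 were positive with a median of 0.18, 0 were called by edgeR, DESeq2 or limma, and 1 was higher at an unadjusted p under 0.05. That gene, Gas5, had 126, 129 and 111 CPM in CB2 KO and 101, 98.4 and 90.1 CPM in WT, a log2 fold change of 0.34 (SE 0.12, edgeR adjusted p = 0.484). Snhg8 had 1.99, 4.11 and 6.22 CPM in CB2 KO and 6.24, 10.3 and 6.00 CPM in WT, a log2 fold change of -0.92 (SE 0.51, edgeR adjusted p = 0.669).

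The 77 mitochondrial ribosomal proteins, which serve the separate ribosome of that organelle, had a median log2 fold change of 0.02, like the cytosolic set, with 43 positive. Of these, edgeR and limma called 0 and DESeq2 called 1, and 2 were lower at an unadjusted p under 0.05. Mrps27 had 15.2, 20.5 and 18.7 CPM in CB2 KO, against 47.7, 40.8 and 38.5 CPM in WT. Its groups lay far apart, with a log2 fold change of -1.23 (SE 0.23, edgeR adjusted p = 0.169, DESeq2 adjusted p = 1e-06). The other low gene, Mrpl28, had 82.5, 95.6 and 102 CPM in CB2 KO and 135, 106 and 131 CPM in WT, a log2 fold change of -0.41 (SE 0.15, edgeR adjusted p = 0.492).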

How the data were processed

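RNA-seq of 6 sorted ILC2 samples was used, grouped by the sample titles. The authors deposited an estimated count per gene, from an expectation-maximization assignment in Partek as the deposited table is named, and a normalized signal with a 75th percentile of 44.6 in every library. Partek, CASAVA 1.8.2, STAR (version given as 3.5.3) and mm10 stand in the submitters' processing notes; for the strand setting, nothing is given in the sources used. Reads fitting more than 1 gene are split between genes, so members and copies can exchange counts.

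Counts were rounded and tested with edgeR 4.0.16 in R 4.3.3 (TMM, filterByExpr, glmQLFit with robust=TRUE and legacy=FALSE, Benjamini-Hochberg over 14084 genes, threshold 0.05); the filter removed 4394 genes. Alternatives were DESeq2 1.42.0, limma 3.58.1, other scalings, no filter and leaving out each library. Standard errors are the log2 fold change over the root of F, and 95% intervals use the fit's t distribution. CPM uses TMM-scaled sizes, and 3 counts equal 0.140 to 0.174 CPM; such limits cover counting error only. No library was a second copy of another (chi-square of at least 31.0 per degree of freedom for any pair). Of the table's rows, 17980 matched GENCODE M21 by symbol and chromosome, and deposited stops lie 1 above its ends. The workflow was tested on simulated data.

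The members, lists and rule for named genes were chosen with earlier results of these data known. Named were the 6 smallest p in each direction, the 5 highest and 5 lowest per kilobase, the 5 most variable at 100 CPM or more, paralogs with parents, Rps19bp1, Rps6, Rpsa, Rplp0, Cnr2 and the 2 smallest p of each list; Rpl10 and Rpl28 were named after their values were seen. A few genes picked by it were left out of the text.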

Additional observations from a re-analysis of the deposited data

How the results depend on the processing

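No setting tried called a member: 0 of 83 under DESeq2, both limma fits, other scalings, no filter, a replicate block and each left-out library. Over all genes edgeR called 15, DESeq2 363, limma-voom 15, limma on the authors' signal 17, the replicate block 3, and fits without 1 library 3 to 8. In the correlations run, same-numbered samples did not deviate together (r of 0.05, 0.02 and 0.02), so the numbers were not read as pairs. The members' median deviations, however, ranked replicate 1 highest, replicate 3 next and replicate 2 lowest in both groups. Whether the numbers mark something shared was not tested. Under the block the members' median was 0.03. Without 1 library that median ran from -0.01 (without WT replicate 2) to 0.08 (without WT replicate 1), and members without overlap numbered 15 to 21 (18.1% to 25.3%), in place of 10 (12.05%), beside 23.0% to 24.7% of all tested genes in the same fits, in place of 14.1%. Scaling by library size alone gave 57 positive to 26 negative. Some fits changed sign, those near 0 but also Rpl39l (1.18), Rpl9 (-0.39) and Rps12 (0.35): scaling by library size alone gave Rps9 0.00019, Rps6 0.013 and Rpsa 0.010, DESeq2 gave Rps6 0.00072, limma-voom gave Rpl39l -0.19, the authors' signal gave Rps19bp1 0.0014, and adding copies gave Rpl9 0.16, Rps12 -0.017 and Rpl22 -0.015. The cause was not tested. Leaving out 1 library gave ranges of -0.20 to 0.22 for Rpl12, -0.10 to 0.44 for Rpl17, -0.031 to 0.18 for Rpl7, -0.038 to 0.17 for Rpl14, -0.51 to 0.25 for Rpl36a, -0.061 to 0.088 for Rps6, -0.10 to 0.035 for Rps9, -0.86 to 2.30 for Rpl39l, -0.16 to 0.054 for Rpl39, -0.28 to 0.33 for Rps19bp1, -0.072 to 0.026 for Rpsa and -0.037 to 0.13 for Rpl22. The 6 members under 10 CPM include Rpl9, Rpl17, Rpl36a and Rps12, whose counts lie mostly on copies. The members' share difference was 0.087 points with named copies, 0.116 with all copies, and 0.034 to 0.096 without 1 library.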
